A study of Mus musculus with 13 samples.

Results

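Egr2, Phox2a, Lmx1a, Lmx1b, Atoh1, Ptf1a, Dbx1 and Dbx2 encode transcription factors that set up segments, progenitor columns or nuclei of the embryonic hindbrain, and the open chromatin around these 8 genes was examined here. The 8 genes were taken by name from the mouse annotation, which held 55450 genes of every type and 21938 protein-coding genes. Open chromatin was measured by ATAC-seq, in which a transposase cuts DNA that is free of nucleosomes, in 13 libraries of cultured oligodendrocyte precursor cells (OPCs), the proliferating cells that give rise to myelinating glia. The OPCs came from pups of AMGFAP-Cre;K27M litters aged P5 to P7, pooled by region and genotype, and were kept in medium with PDGF, forskolin, CNTF and neurotrophin-3 that holds them undifferentiated. From the brainstem there were 3 libraries of control cells and 3 of K27M cells, and from the telencephalon, which here means cortex, corpus callosum and hippocampus, there were 3 and 4. K27M cells carry a conditional knock-in of the H3.3 K27M oncohistone at the H3-3a gene that is switched on by Cre under the human GFAP promoter, which is active in neural stem and progenitor cells. Controls were littermates, and their own alleles are not given in the labels. The libraries are named by culture number, the study's methods describe control and K27M cultures as matched pairs, and p-values measure the spread between these cultures.

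The embryonic hindbrain is divided along its length into rhombomeres and across its width into dorsal and ventral columns, and each of these compartments expresses its own set of transcription factors. Egr2 (also called Krox20) is a zinc finger factor of the third and the fifth rhombomere and later drives myelination in Schwann cells. Atoh1 and Ptf1a are basic helix-loop-helix factors of the rhombic lip and of the dorsal column beside it, and specify glutamatergic and GABAergic neurons, respectively. Lmx1a and Lmx1b are LIM homeodomain factors of the roof plate, and Lmx1b is also needed for serotonergic neurons. Phox2a is a homeodomain factor of noradrenergic and visceral motor nuclei, and Dbx1 and Dbx2 are homeodomain factors of the intermediate columns. These genes are known for embryonic patterning, and the cells measured were postnatal glia, so the comparison asks whether OPCs from the brainstem keep a chromatin state at these genes that differs from OPCs of the telencephalon, and whether H3.3 K27M alters it.

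The lists give, for each library, the peaks called in it and each peak's fold enrichment over the local background of that library. They hold no read counts, so the depth is unknown, and a missing peak means that none was called, not that the chromatin was closed. The promoter of a gene was the stretch from 2 kb before to 1 kb after any annotated start, and the locus was the gene with 50 kb on each side. In the sequence table used here all 8 genes had a RefSeq start. The promoters of Egr2, Atoh1, Phox2a and Ptf1a are shown because they span the range from a peak in every library (Egr2 and Atoh1) and in 3 (Ptf1a) to none (the main start of Phox2a), while all 4 hold more CpG dinucleotides than the median promoter. Each is the 250 bases before a RefSeq start (build GRCm38.p6, the same assembly as mm10), written 5′ to 3′ along the plus strand, with every CpG in capitals. None of these 4 stretches overlaps an annotated exon. For Egr2 the stretch before the second RefSeq start is given, since peaks lay over that start in 13 of 13 libraries and over the first RefSeq start in 3.
Egr2 (chr10:67537316-67537565, plus strand): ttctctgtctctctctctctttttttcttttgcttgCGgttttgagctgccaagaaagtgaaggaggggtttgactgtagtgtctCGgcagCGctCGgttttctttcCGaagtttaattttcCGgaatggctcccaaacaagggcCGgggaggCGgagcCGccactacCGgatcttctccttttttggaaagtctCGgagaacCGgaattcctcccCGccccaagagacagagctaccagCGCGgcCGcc
Atoh1 (chr6:64728875-64729124, plus strand): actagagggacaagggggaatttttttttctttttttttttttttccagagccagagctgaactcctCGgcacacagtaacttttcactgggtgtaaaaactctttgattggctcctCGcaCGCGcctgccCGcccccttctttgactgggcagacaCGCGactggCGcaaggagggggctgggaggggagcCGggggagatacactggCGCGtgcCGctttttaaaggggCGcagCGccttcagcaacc
Phox2a (chr7:101818063-101818312, plus strand): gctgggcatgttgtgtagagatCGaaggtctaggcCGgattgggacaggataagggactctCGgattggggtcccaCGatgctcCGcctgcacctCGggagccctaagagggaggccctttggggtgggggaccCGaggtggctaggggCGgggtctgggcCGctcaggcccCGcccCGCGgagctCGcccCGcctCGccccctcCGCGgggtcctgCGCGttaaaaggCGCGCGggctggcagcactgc
Ptf1a (chr2:19445413-19445662, plus strand): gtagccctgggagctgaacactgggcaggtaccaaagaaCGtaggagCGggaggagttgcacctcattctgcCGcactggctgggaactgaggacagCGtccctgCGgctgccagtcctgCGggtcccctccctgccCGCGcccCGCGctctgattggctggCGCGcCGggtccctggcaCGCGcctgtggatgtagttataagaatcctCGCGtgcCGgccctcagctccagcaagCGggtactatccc

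The stretches held 16 CpGs at Egr2 (before its second RefSeq start), 14 at Atoh1, 22 at Phox2a and 19 at Ptf1a. Across 16522 protein-coding genes with a RefSeq start, the median was 10 CpGs in the 250 bases before each gene's first RefSeq start. It was 17 for genes with a promoter peak in all 13 libraries, 5 for genes with a peak in 1 to 4 libraries and 2 for genes with none. Ptf1a, with a promoter peak in 3 libraries, had a CpG number above the upper quartile of 11 for genes called in 1 to 4, and the 22 CpGs of Phox2a lay before a start with no peak in its window in any library. Over the first RefSeq starts of the 8 genes the number ran from 9 at Lmx1a and Dbx2 to 26 at Egr2.

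Promoter peaks separated the 8 genes into an often called and a rarely called set. Egr2 and Atoh1 had a promoter peak in 13 of 13 libraries and Lmx1a in 12, the exception being K27M brainstem culture 61. Lmx1b had one in 6 libraries, Phox2a and Dbx2 in 4, Ptf1a in 3 and Dbx1 in 1. The place of 2 genes depended on the annotation: with RefSeq starts in place of GENCODE starts, Dbx2 was called in 12 libraries and Phox2a in 0. The share of all protein-coding genes whose promoter was called was 42.0% for all 13 libraries, 30.6% for none, 15.1% for 9 to 12, 4.39% for 5 to 8 and 7.96% for 1 to 4. With GENCODE starts, 2, 1, 1 and 4 of the 8 genes fell into the ranges of 13, 9 to 12, 5 to 8 and 1 to 4 libraries, and none was without a peak (69.4% of all genes had at least 1). With every list shortened to the 16879 peaks of the shortest, keeping those with the lowest p, Egr2 was called in 13 libraries, Lmx1a in 3, Atoh1 and Dbx2 in 2 and the other 4 genes in none, where 30.3% of all genes stayed in all 13 and 43.5% were in none. Where the promoters were called, the peaks were low in their lists: the median over the 8 genes of the mean within-list percentile of fold was 21.9, against 60.8 over all protein-coding genes with a called promoter. Low values were not particular to these genes. In the gene lists described below the same median was 17.4 for other hindbrain and dorsoventral factors and 23.2 for Hox genes. It was 31.3 for dorsal telencephalon genes, 37.9 for OPC markers and 46.6 for Iroquois genes.

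**Figure D1:**
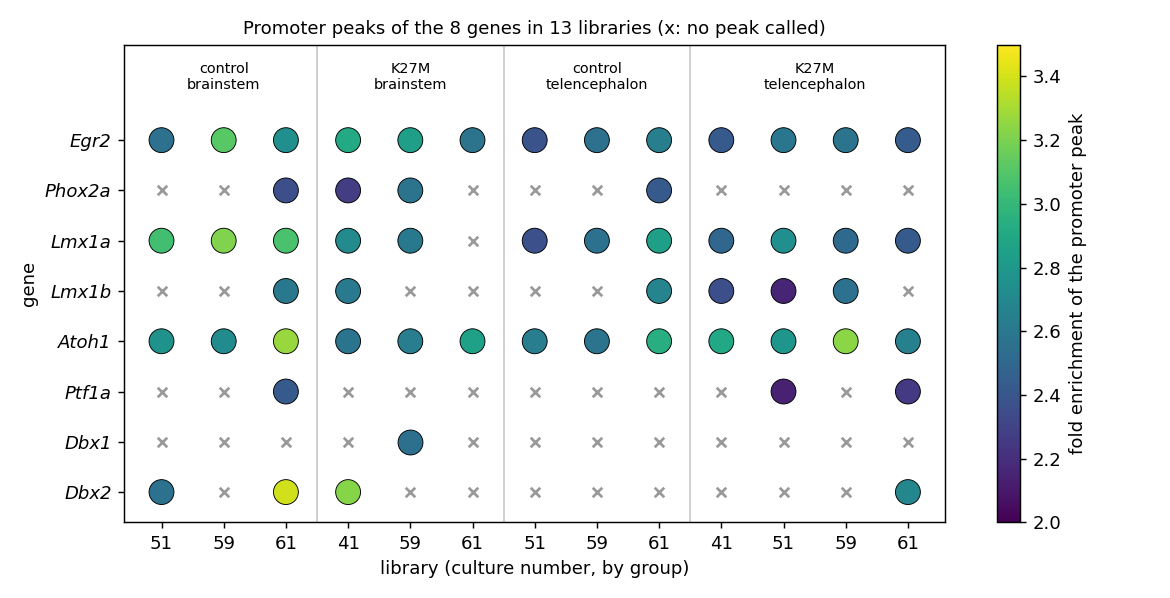
Promoter peaks of the 8 genes (rows) in 13 libraries (columns, by group and culture number). Filled circles are called peaks coloured by fold enrichment and grey crosses are libraries with no peak; Egr2 and Atoh1 are filled in 13 of 13 libraries, Lmx1a in 12, and Dbx1 in 1, all with GENCODE starts.

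Egr2 lies on chromosome 10 (67535475 to 67542188, plus strand, mm10) and has 6 annotated starts. Its promoter peak reached a fold of 2.56, 3.11 and 2.74 in control brainstem cultures 51, 59 and 61, and 2.90, 2.84 and 2.57 in K27M brainstem cultures 41, 59 and 61. It reached 2.38, 2.55 and 2.64 in control telencephalon cultures 51, 59 and 61, and 2.42, 2.59, 2.57 and 2.43 in K27M telencephalon cultures 41, 51, 59 and 61. The brainstem values ran higher and the 2 regions overlapped only between 2.56 and 2.64. Of 9211 protein-coding genes called in all libraries, 5 (0.0543%) had region groups that did not overlap. The mean was 2.79 ± 0.211 (SD, n = 6) in brainstem and 2.51 ± 0.0989 (SD, n = 7) in telencephalon. Before centring, promoter folds leaned higher in brainstem lists. The median brainstem minus telencephalon difference over 11483 promoters was 0.07 on the log2 scale, with a median SE of 0.11. After each library was centred on its own median, the brainstem minus telencephalon difference at Egr2 was 0.07 ± 0.08 (log2 fold, SE), with an adjusted p of 0.995 by limma. The same test called 4 of 11483 promoters, or 0.0348%, and 482 (4.20%) were under 0.05 before adjustment. In the alternative fit with a replicate block for culture the count was 2, and neither Egr2 nor another of the 8 genes was among them. Without the centring the difference was 0.15 ± 0.10 (log2 fold, SE; adjusted p = 0.981 by limma), and 1 library carried much of the centred one, which fell to 0.0048 without control brainstem culture 59. By genotype the centred K27M minus control difference was -0.06 ± 0.08 (log2 fold, SE; adjusted p = 0.999 by limma), where no promoter passed (0%) and 508 (4.42%) had an unadjusted p under 0.05. The Egr2 peak was wide, with a median of 2618 bp against 759 bp over all peaks, and its median −log10 p was 7.53 against 5.49 over all peaks. It was the member promoter that stayed in all 13 lists when every list was shortened.

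Atoh1 lies on chromosome 6 (64729125 to 64731245, plus strand) and has 1 annotated start. Its promoter peak reached a fold of 2.76, 2.72 and 3.27 in control brainstem cultures 51, 59 and 61, and 2.58, 2.63 and 2.86 in K27M brainstem cultures 41, 59 and 61. It reached 2.63, 2.57 and 2.94 in control telencephalon cultures 51, 59 and 61, and 2.90, 2.79, 3.24 and 2.65 in K27M telencephalon cultures 41, 51, 59 and 61. The regions overlapped almost entirely, with means of 2.80 ± 0.249 (SD, n = 6) in brainstem and 2.82 ± 0.234 (SD, n = 7) in telencephalon. The centred brainstem minus telencephalon difference was -0.08 ± 0.08 (log2 fold, SE; adjusted p = 0.995 by limma). The Atoh1 peak was called on weaker evidence than the Egr2 peak, with a median −log10 p of 4.6, and it stayed in 2 of the 13 shortened lists, both from telencephalon. Among them was control telencephalon culture 59, the shortest list, which was not cut and could lose no peak.

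Lmx1a lies on chromosome 1 (167689237 to 167848741, plus strand) and spans 159505 bp. Its promoter peak reached a fold of 3.04, 3.22 and 3.07 in control brainstem cultures 51, 59 and 61, and 2.71 and 2.60 in K27M brainstem cultures 41 and 59. It reached 2.37, 2.57 and 2.84 in control telencephalon cultures 51, 59 and 61, and 2.49, 2.74, 2.51 and 2.42 in K27M telencephalon cultures 41, 51, 59 and 61. The 3 control brainstem values were the highest of the 12. Since 1 library had no peak, Lmx1a entered a strength test only when promoters called in at least 12 libraries were admitted, an alternative chosen after the data were seen. There the K27M minus control difference was -0.21 ± 0.08 (log2 fold, SE; adjusted p = 1.00 by limma) and the brainstem minus telencephalon difference was 0.05 ± 0.08 (adjusted p = 0.999). The genotype difference had an unadjusted p of 0.0109 in limma and did not pass after adjustment over all promoters tested. The share of all promoters at an unadjusted p under 0.05 in that fit was not counted. The peak stayed in 3 of the 13 shortened lists, among them the uncut list of control telencephalon culture 59.

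**Figure D2:**
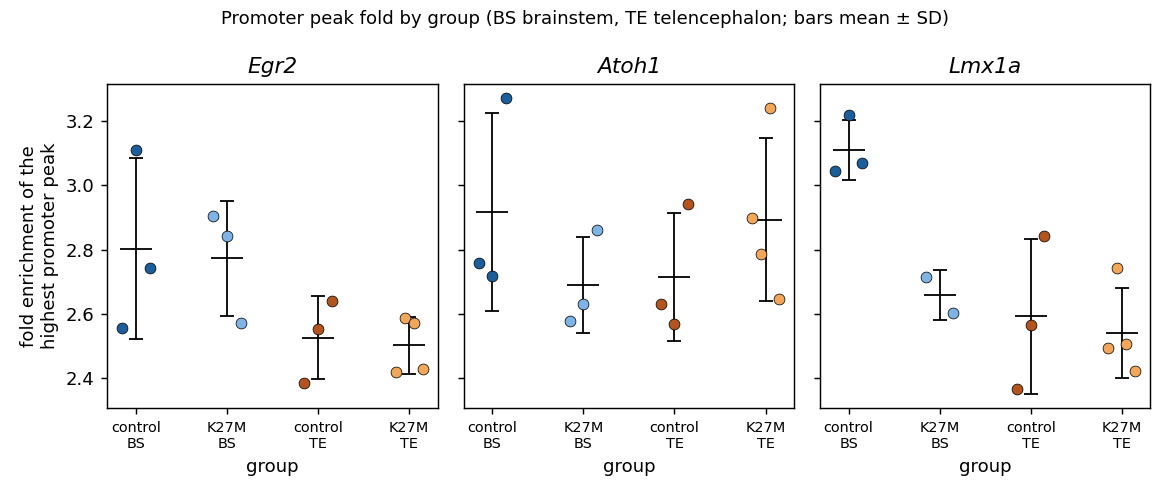
Fold enrichment (y axis) of the highest promoter peak of Egr2, Atoh1 and Lmx1a by group; points are libraries, bars are the mean ± SD of the called libraries. Brainstem (BS) and telencephalon (TE) values of Atoh1 overlap throughout, those of Egr2 between 2.56 and 2.64, and the 3 control brainstem values of Lmx1a, 3.04 to 3.22, are its highest.

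The other promoters were called in too few libraries for a test of strength. Lmx1b lies on chromosome 2 (33560965 to 33640511, minus strand), and its peak was called at a fold of 2.60 in control brainstem culture 61, 2.61 in K27M brainstem culture 41, 2.68 in control telencephalon culture 61, and 2.36, 2.15 and 2.56 in K27M telencephalon cultures 41, 51 and 59. That was 2 of 6 brainstem and 4 of 7 telencephalon libraries, and likewise 2 of 6 control and 4 of 7 K27M libraries. It was the one member in the range of 5 to 8 libraries in which presence was tested, and its adjusted p was 1.00 for region and for genotype by Fisher's exact test, two-sided. None of the 1815 genes of every type tested in that way passed for region or for genotype (0%), with 39 (2.15%) and 22 (1.21%) at an unadjusted p under 0.05. The smallest p that this Fisher test can give with 6 against 7 libraries is 0.000583. Hoxa2, at that p for region, had an adjusted p of 0.212. The 0 therefore cannot decide whether presence differs. The Lmx1b calls came from 2 merged peaks. The one at the first start (33639054 to 33640099), called in all 6 of these libraries, also overlapped the promoter of the antisense gene C130021I20Rik, and the other (33631312 to 33632810) lay 8.45 kb into the gene at an internal start and gave the value of 2.15.

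Phox2a lies on chromosome 7 (101818313 to 101822726, plus strand). Its main start had no peak in its promoter window in any of the 13 libraries, and the 4 calls came through a second start within the gene, at 101820746. The calls reached a fold of 2.36 in control brainstem culture 61, 2.27 and 2.57 in K27M brainstem cultures 41 and 59, and 2.42 in control telencephalon culture 61. All 4 sat at the 10.9th percentile of their lists or lower. The merged peak there, 1579 bp wide and called in 5 libraries since it extends beyond the window, covers an exon of Phox2a, and the CpG-rich stretch of Phox2a printed above was covered in no library.

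Ptf1a lies on chromosome 2 (19445663 to 19447501, plus strand). Its promoter peak was called at a fold of 2.42 in control brainstem culture 61, and of 2.14 and 2.25 in K27M telencephalon cultures 51 and 61. These were among the weakest calls of their lists, at the 7.28th, 2.30th and 5.68th percentile. Ptf1a shares its promoter with the antisense gene Ptf1aos. Dbx1 lies on chromosome 7 (49631499 to 49636849, minus strand) and had a single promoter call, at a fold of 2.55 and the 9.39th percentile in K27M brainstem culture 59.

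Dbx2 lies on chromosome 15 (95623563 to 95655960, minus strand), and its count depended on which start was used. With the annotated starts it was called in 4 libraries, at a fold of 2.57 and 3.39 in control brainstem cultures 51 and 61, 3.23 in K27M brainstem culture 41 and 2.70 in K27M telencephalon culture 61. The RefSeq start lies 1189 bp further into the gene, and with RefSeq starts Dbx2 was called in 12 of 13 libraries, all but control telencephalon culture 59, the shortest list. The peak was the same one in both counts, since the merged peak (95653133 to 95655227) is centred 1.8 kb inside the gene and reached the window of the outer start in some lists only. Its fold was 2.57, 3.01 and 3.39 in control brainstem cultures 51, 59 and 61, and 3.23, 2.45 and 3.35 in K27M brainstem cultures 41, 59 and 61. It was 2.92 and 4.43 in control telencephalon cultures 51 and 61, and 2.76, 3.07, 3.17 and 2.70 in K27M telencephalon cultures 41, 51, 59 and 61. The highest value, in control telencephalon culture 61, stood apart from the others, and the regions overlapped around a mean of 3.09 ± 0.519 (SD, n = 12). In the fit over merged peaks called in at least 12 libraries, the centred difference was -0.14 ± 0.09 for brainstem minus telencephalon (adjusted p = 0.911 by limma) and -0.14 ± 0.09 for K27M minus control (log2 fold, SE; adjusted p = 0.998). Under RefSeq starts the counts of the other members were 13 for Egr2 and Atoh1, 12 for Lmx1a, 4 for Lmx1b, 3 for Ptf1a, 1 for Dbx1 and 0 for Phox2a.

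The 8 loci held 82 merged peaks, that is stretches joined from the overlapping peaks of all lists. Of these, 7 were called in all 13 libraries (8.54%, against 13.1% of all 99746 merged peaks), 18 in 10 or more (22.0%, against 24.1%) and 34 in 1 library (41.5%, against 43.1%). The 82 peaks comprised 9 at the gene's own promoters, 2 over exons, 18 within introns, 21 upstream and 32 downstream. Lmx1a, whose locus spans 259.5 kb, held 20 of them and Lmx1b, with 179.5 kb, held 17, while Atoh1 and Phox2a, with 102.1 and 104.4 kb, held 4 and 5. Per library and 100 kb of locus, the mean number of called peaks was 3.49 at Dbx2, 3.43 at Lmx1b, 2.93 at Lmx1a, 2.67 at Egr2, 2.04 at Ptf1a, 1.90 at Dbx1, 1.88 at Atoh1 and 1.77 at Phox2a.

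**Figure D3:**
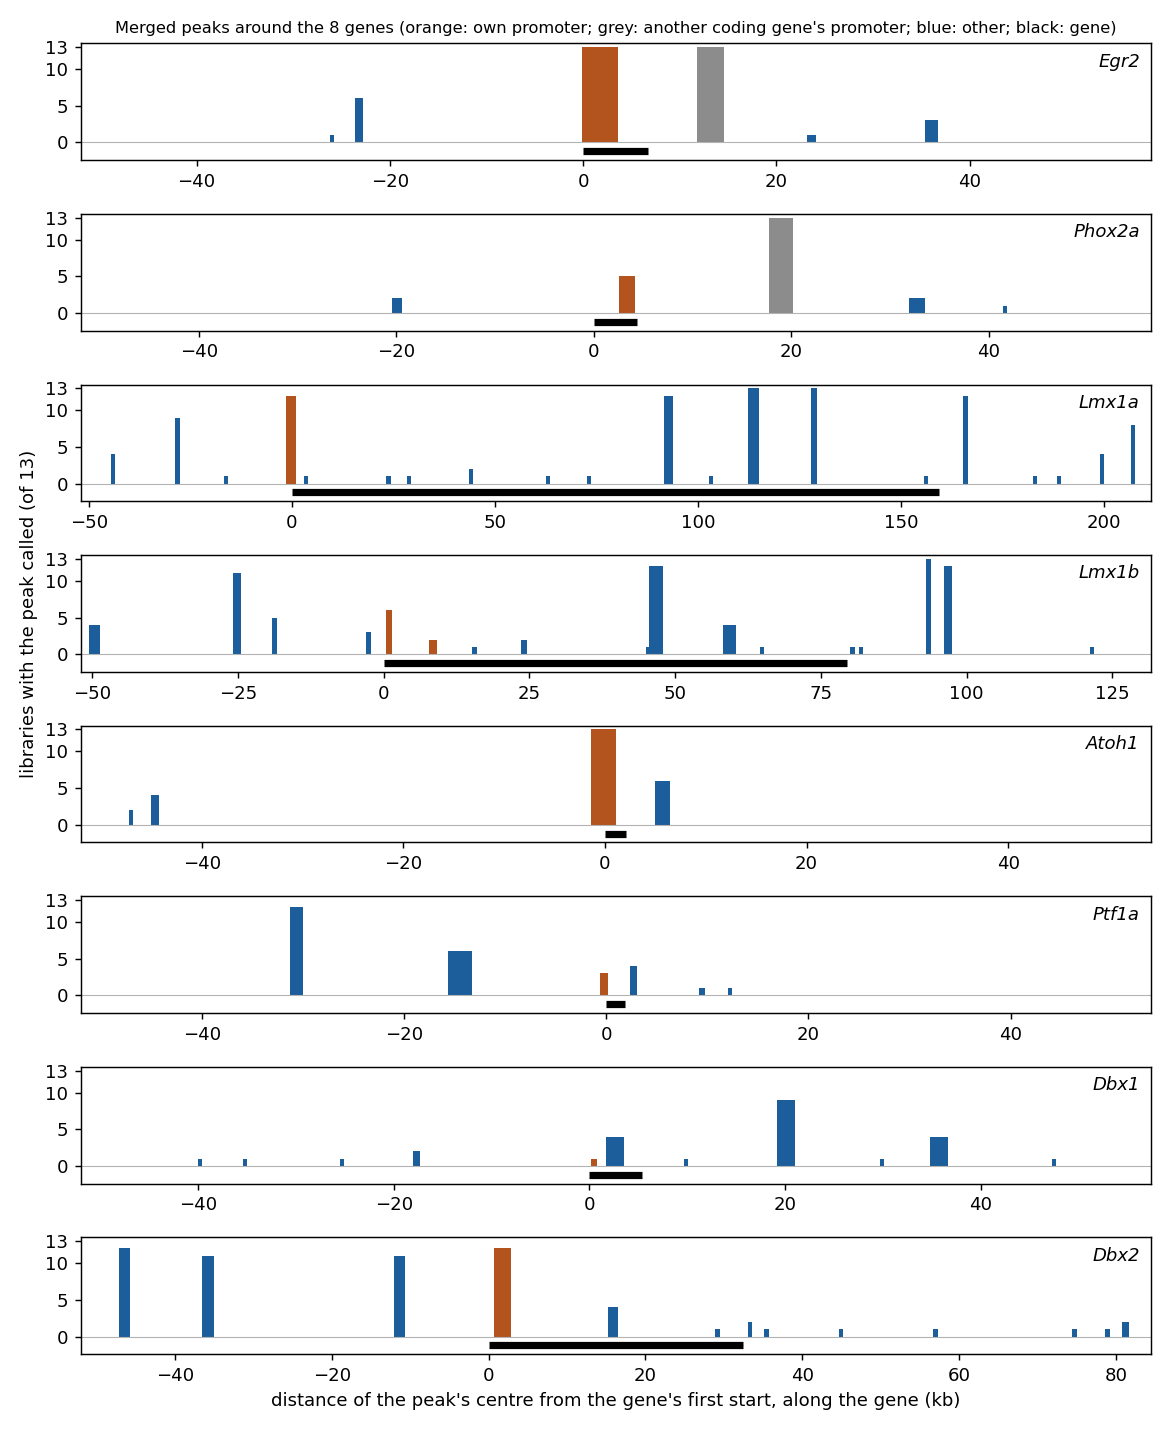
Merged peaks around each of the 8 genes, by distance of the peak's centre from the gene's first start in kb (x axis) and by the number of libraries in which the peak was called (y axis); the black bar is the gene. Lmx1a, Lmx1b and Dbx2 have several bars of 11 to 13 libraries away from their promoters, whereas the bars of 13 beside Egr2 and Phox2a are grey, at promoters of other coding genes.

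The sequences of 4 peaks away from promoters are shown because they were the strongest distal peak of Lmx1a, the most widely called distal peaks of Ptf1a and Dbx2, and the one peak downstream of Atoh1. Each is the central 200 bases of the merged peak, read from the GRCm38.p6 genome, 5′ to 3′ along the plus strand, and none overlaps an annotated exon. Capitals mark 3 motifs on either strand, which share no letters with each other here: the E-box CAGCTG read by helix-loop-helix factors, the SOX motif ACAAAG or CTTTGT, and the homeodomain motif TAATTA.
Lmx1a intron (chr1:167817698-167817897): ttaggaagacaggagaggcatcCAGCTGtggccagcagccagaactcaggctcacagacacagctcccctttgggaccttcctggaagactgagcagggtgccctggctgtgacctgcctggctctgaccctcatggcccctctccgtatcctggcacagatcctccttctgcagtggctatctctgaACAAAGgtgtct
Ptf1a upstream (chr2:19414906-19415105): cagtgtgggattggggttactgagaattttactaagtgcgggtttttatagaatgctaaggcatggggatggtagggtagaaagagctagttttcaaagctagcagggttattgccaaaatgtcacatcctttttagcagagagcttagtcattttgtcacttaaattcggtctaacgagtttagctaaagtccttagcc
Atoh1 downstream (chr6:64734736-64734935): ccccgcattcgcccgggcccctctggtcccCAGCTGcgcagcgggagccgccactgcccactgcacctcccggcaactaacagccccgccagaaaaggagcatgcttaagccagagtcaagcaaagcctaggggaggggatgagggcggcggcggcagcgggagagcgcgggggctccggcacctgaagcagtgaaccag
Dbx2 upstream (chr15:95702292-95702491): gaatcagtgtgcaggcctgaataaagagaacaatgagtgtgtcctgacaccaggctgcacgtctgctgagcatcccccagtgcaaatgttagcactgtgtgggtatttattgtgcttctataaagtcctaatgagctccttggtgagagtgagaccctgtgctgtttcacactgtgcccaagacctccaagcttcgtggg

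The Lmx1a and Atoh1 stretches held the E-box and the Lmx1a stretch also held the SOX motif, whereas the Ptf1a and Dbx2 stretches held none of the 3. Among 18 peaks of the 8 loci that were called in at least 5 libraries and touched no promoter, 5 held the E-box, 3 the SOX motif and 1 the homeodomain motif. Over all 22002 such peaks of the genome, 17.8%, 23.1% and 6.13% held them. The letters are a description of these windows and no binding was measured.

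The merged peak with the highest mean fold of the 82 lay at Lmx1a, at 4.23 ± 0.632 (SD, n = 13). It lies in an intron (chromosome 1, 167817064 to 167818531), 128.6 kb into the gene, and is the peak whose core is printed above. Its fold was 4.36, 4.44 and 4.91 in control brainstem cultures 51, 59 and 61, and 4.69, 3.99 and 3.77 in K27M brainstem cultures 41, 59 and 61. It was 4.07, 2.69 and 4.74 in control telencephalon cultures 51, 59 and 61, and 4.05, 5.23, 4.02 and 4.05 in K27M telencephalon cultures 41, 51, 59 and 61. The lowest value came from the shortest list, and the regions overlapped. On average the peak stood at the 89.5th ± 17.6 (SD, n = 13) percentile of its list, and it was in all 13 shortened lists, where the Lmx1a promoter was in 3. The centred difference was 0.05 ± 0.07 for brainstem minus telencephalon and -0.01 ± 0.07 for K27M minus control (log2 fold, SE), with no call by limma. A second intronic peak, 113.7 kb into the gene, was called in 13 libraries at a mean fold of 2.94 ± 0.392 (SD, n = 13), another at 92.8 kb in 12, and a peak 6.4 kb beyond the gene's end in 12 at a mean fold of 3.57 ± 0.384 (SD, n = 12).

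Lmx1b also had distal peaks called more widely than its promoter. The peak 14.0 kb beyond its end (33546581 to 33547396) was called in 13 libraries at a mean fold of 2.94 ± 0.268 (SD, n = 13) and stayed in 9 of the shortened lists. An intronic peak 46.8 kb into the gene and a peak 17.3 kb beyond its end were called in 12 each, and a peak 25.1 kb upstream in 11. The Lmx1b promoter, by contrast, was in none of the shortened lists. At Ptf1a, Dbx1 and, with the annotated starts, Dbx2, the promoter was likewise called in fewer libraries than the most widely called distal peak. This sets a promoter against the most widely called of several distal peaks. How many of all genes show the same order was not counted.

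Dbx2 had 3 peaks upstream of its start, at 11.3, 35.8 and 46.4 kb, called in 11, 11 and 12 libraries. The mean folds were 3.52 ± 0.583 (SD, n = 11), 3.45 ± 0.766 (SD, n = 11) and 3.23 ± 0.408 (SD, n = 12). They were among the higher peaks of their lists, at mean percentiles of 72.2, 66.0 and 62.2. Control brainstem culture 59 lacked all 3 and control telencephalon culture 59, the shortest list, lacked the nearer 2, and all 7 K27M libraries held each of the 3. All 7 also held the Lmx1a peaks at 92.8 kb and beyond the gene's end, the Lmx1b intronic peak and the 30.7 kb Ptf1a peak. Each of these was called in 5 control libraries and was missing in control telencephalon culture 59, the shortest list. The Lmx1b peak 25.1 kb upstream was called in 6 K27M and 5 control libraries. The Lmx1a promoter and the Lmx1b peak 17.3 kb beyond its end were called in 6 K27M and 6 control libraries. The share of such patterns over all merged peaks was not counted. Presence of peaks called in over 8 libraries was not tested.

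Ptf1a had a peak 30.7 kb upstream (19414390 to 19415620) in 12 libraries, at a mean fold of 3.21 ± 0.543 (SD, n = 12), and one 14.5 kb upstream (19430046 to 19432367), at the promoter of the antisense gene Gm13344, in 6, namely 3 of each region. Ptf1a is known to have an upstream enhancer that its own protein binds, and whether either peak is that element was not examined. The peak 5.7 kb downstream of the Atoh1 start (64734115 to 64735556) was called in 6 libraries at 2.48 and 2.84 in control brainstem cultures 51 and 61, 2.49 and 4.04 in control telencephalon cultures 51 and 61, and 2.65 and 2.75 in K27M telencephalon cultures 51 and 61. These were 4 of 6 control and 2 of 7 K27M libraries (exact two-sided Fisher p = 0.286). An enhancer that Atoh1 itself controls is known to lie 3′ of the gene, and its overlap with this peak was not examined. Dbx1 had 1 peak in more than 4 libraries, 14.7 kb beyond its end, in 9 at a mean fold of 2.53 ± 0.232 (SD, n = 9). The 14.5 kb peak of Ptf1a, the Atoh1 and Dbx1 peaks and the upstream Egr2 peak described next were singled out after their values were seen.

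At Egr2 and Phox2a the widely called distal peaks belonged to neighbours. The peak 13.2 kb from the first Egr2 start, called in 13 libraries at a mean fold of 3.29 ± 0.389 (SD, n = 13), covered the promoter of Ado, and the peak 19.0 kb from the Phox2a start, called in 13 at 2.43 ± 0.124 (SD, n = 13), covered those of Inppl1 and Gm10602. Without them, Phox2a had no peak in more than 5 libraries. Egr2 had 1 further peak in more than 3, at 23.2 kb upstream, at folds of 3.14 in control brainstem culture 59, 2.36 and 2.69 in control telencephalon cultures 51 and 61, and 2.52, 2.46 and 2.39 in K27M telencephalon cultures 41, 51 and 61. Calls came from 1 of the 6 brainstem and 5 of the 7 telencephalon libraries (exact two-sided Fisher p = 0.103), and none of the shortened lists held it. Egr2 enhancers used by Schwann cells are known downstream of the gene, and the only downstream peaks here other than that at Ado were one in 3 libraries, at promoters of 4930563J15Rik and Gm10797, which are not annotated as protein-coding, and one in 1.

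No peak of the 8 loci was called as different between regions or between genotypes. Among the 7 merged peaks in all 13 libraries, the brainstem minus telencephalon differences ran from -0.07 to 0.08 and the K27M minus control differences from -0.10 to 0.13 (log2 fold, with SEs of 0.07 to 0.08). The smallest adjusted p was 0.981 for region and 0.999 for genotype by limma. Over all 13075 merged peaks the same fits called 2 for region (0.0153%) and 0 for genotype, with 702 (5.37%) and 587 (4.49%) at an unadjusted p under 0.05. Widened to the 15 member peaks in at least 12 libraries, 1 had an unadjusted p under 0.05, the Lmx1a promoter for genotype at 0.0160 in limma, and none passed after adjustment. The share of all merged peaks under 0.05 in that wider fit was not counted. For presence, 7 member peaks in 5 to 8 libraries were tested, none had an unadjusted p under 0.05 by exact Fisher tests, and over all 11706 peaks tested 276 (2.36%) had one for region and 147 (1.26%) for genotype, with 0 after adjustment for either. The smallest p of this Fisher test, 0.000583, is too large to pass over 11706 peaks unless many peaks share it.

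**Figure D4:**
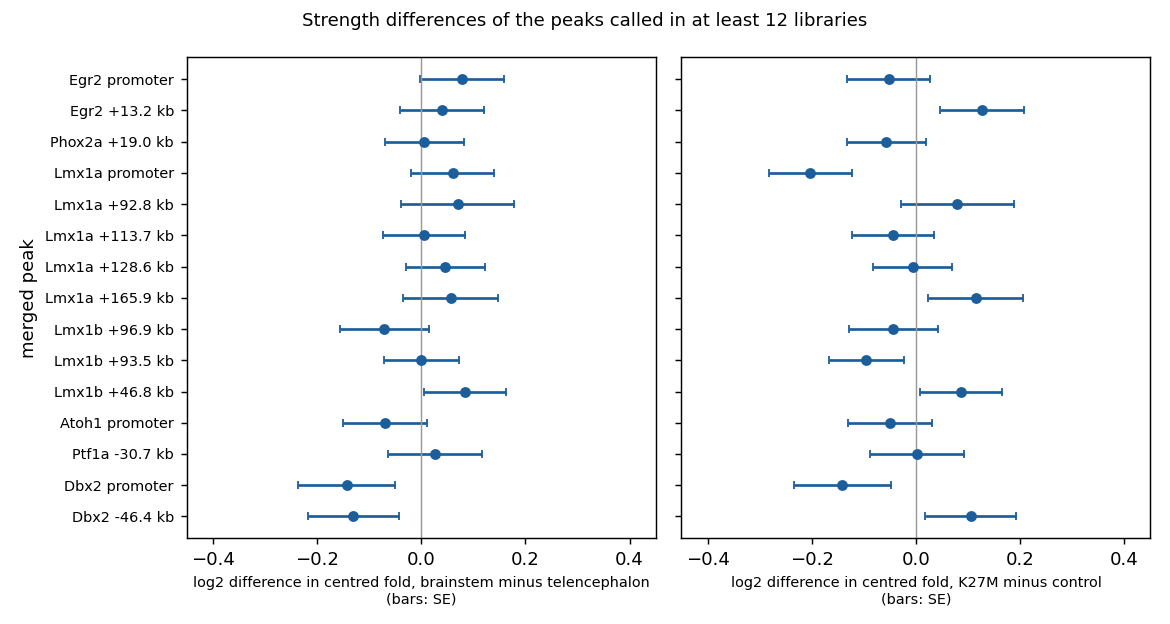
Differences in centred log2 fold for the 15 merged peaks called in at least 12 libraries, brainstem minus telencephalon (left) and K27M minus control (right); points are limma estimates and bars are SEs. The region differences lie between -0.14 and 0.08 and the genotype differences between -0.20 and 0.13, and none passed the adjusted threshold.

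The genotype difference was also compared between the regions. For Egr2, the K27M minus control difference in brainstem exceeded that in telencephalon by 0.12 ± 0.15 (log2 fold, SE), and for Atoh1 the same contrast was -0.09 ± 0.16 (adjusted p = 1.00 for both by limma). Over the 7 merged peaks in all libraries this interaction ran from -0.23 to 0.12, and 0 of 13075 merged peaks and 0 of 11483 promoters passed, with 447 (3.42%) and 396 (3.45%) at an unadjusted p under 0.05. Over the 15 member peaks in at least 12 libraries it ran from -0.23 to 0.34, and none passed after adjustment. The highest was the peak at the Dbx2 promoter, at 0.34 ± 0.19 (log2 fold, SE), with an unadjusted p of 0.0787 by limma.

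The number of peaks in the 8 loci was highest in the longest list and lowest in the shortest. Control telencephalon culture 59 had 16879 peaks, of which 11 lay in the 8 loci, and control brainstem culture 61 had 52466, of which 46 did. The mean was 28.8 ± 10.9 (SD, n = 6) peaks in brainstem and 29.3 ± 10.6 (SD, n = 7) in telencephalon, and 27.5 ± 12.6 (SD, n = 6) in control and 30.4 ± 8.72 (SD, n = 7) in K27M. With every list shortened to 16879 peaks, the numbers ran from 5 to 11, with means of 9.67 ± 1.21 (SD, n = 6) in brainstem and 9.0 ± 2.24 (SD, n = 7) in telencephalon. Control brainstem culture 61 then had 10 and control telencephalon culture 59 kept its 11.

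**Figure D5:**
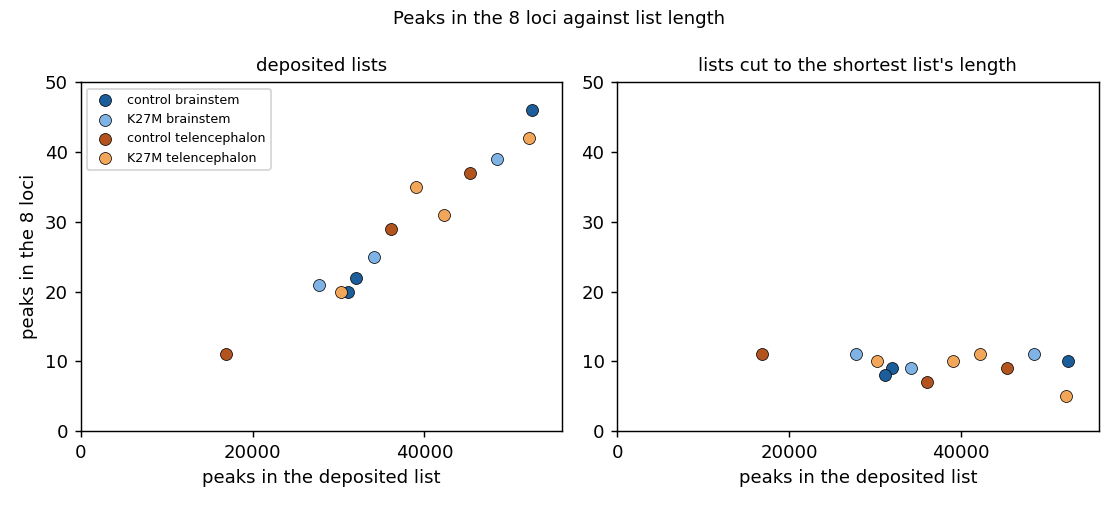
Peaks in the 8 loci (y axis) against the peaks in the deposited list (x axis), for the deposited lists (left) and for lists cut to 16879 peaks (right); each point is a library, coloured by group. The deposited counts run from 11 to 46 with list length, and the shortened ones from 5 to 11 with groups intermixed.

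Gene by gene, Lmx1a held 3 to 11 peaks per library, Lmx1b 2 to 11, Dbx2 2 to 7, Egr2 2 to 5, Ptf1a 0 to 5, Dbx1 0 to 4, and Phox2a and Atoh1 1 to 4. The largest difference by region was at Egr2, with a mean of 2.33 ± 0.516 (SD, n = 6) in brainstem and 3.29 ± 1.11 (SD, n = 7) in telencephalon (exact permutation p = 0.107, two-sided, adjusted p = 1.00). By genotype the largest was at Ptf1a, with 2.57 ± 1.51 (SD, n = 7) in K27M and 1.5 ± 1.38 (SD, n = 6) in control (exact permutation p = 0.294, two-sided, adjusted p = 1.00). No member passed, and 0 of 40932 genes did for either factor, with 375 (0.916%) and 319 (0.779%) at an unadjusted p under 0.05. With 700 arrangements, the smallest p of this test is too large to pass over 40932 genes unless many share it. The 0 therefore cannot decide whether peak numbers differ.

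A few distant promoters were called in exactly the same libraries as a member. For Phox2a, 4 protein-coding genes over 1 Mb away were called in the same 4 libraries, among them Dpp4, Gpr26 and Hmga1b, and for Ptf1a there were 2, Barhl1 and Mettl21e. For Dbx2 there was 1, Rsph14, and for Lmx1b there were 7. Barhl1 is itself a homeodomain gene of rhombic lip derivatives. Of all protein-coding genes, 1746 were called in 1 to 4 libraries, and the number of exact matches expected by chance was not counted. Whether Barhl1 and Ptf1a share more than this pattern of calls was not tested. A further 52, 85, 15 and 41 genes matched Phox2a, Ptf1a, Dbx2 and Lmx1b in 12 of 13 libraries. Control brainstem culture 61, the longest list, held the promoter peak of all 4.

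Among 25 other hindbrain and dorsoventral factors, 5 had a promoter peak in all 13 libraries, among them Gata3, Neurog2 and Msx1, and 1 in none. The number of these 25 promoters called per library was 10 to 20 in brainstem (median 11) and 8 to 19 in telencephalon (median 12). Of the 4 tested for presence, none had an unadjusted p under 0.05, and of the 5 tested for strength 1 had one for region, Msx1, and none passed after adjustment. The number of the 8 genes called per library was likewise 2 to 7 in brainstem (median 4.5) and 3 to 5 in telencephalon (median 4.0).

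Genes of regional identity were counted in the same libraries. The 9 Hox genes of the 3′ end of their clusters, which mark the hindbrain and spinal cord, were called at 3 to 8 promoters per library in brainstem and at 0 to 3 in telencephalon, and 2 of 4 tested for presence had an unadjusted p under 0.05, though none passed after adjustment. Hoxa2, called in 6 of 6 brainstem and 0 of 7 telencephalon libraries, had the smallest p that the Fisher test can give (0.000583). Of the 6 Iroquois genes, 3 were tested for strength and 2 passed between regions, 1 higher in brainstem and 1 higher in telencephalon. Of 7 dorsal telencephalon genes, 2 to 7 were called per brainstem library and 3 to 7 per telencephalon library. No test compared these lists with the 8 genes.

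The cell identity of the libraries was checked with marker promoters. Of 8 OPC markers, 7 were called in 13 of 13 libraries, among them Pdgfra, Olig2 and Sox10, and the exception, Cspg4, was called in 3. Microglial Cx3cr1 and Csf1r and endothelial Cdh5 were called in none, while P2ry12 and Kdr were called in 12 and 10. Per library 0 to 3 of 5 microglial and 0 to 2 of 4 endothelial markers were called, against 4 to 6 of 6 neuronal and 2 to 5 of 5 astrocyte markers. Of 5 Schwann cell markers, a list that includes Egr2, 3 to 4 per brainstem and 2 to 4 per telencephalon library were called, with Pmp2 in none. Of 5 markers of cerebellar granule neurons and the rhombic lip, 2 to 4 were called per brainstem and 2 to 5 per telencephalon library, with Atoh1, a member of that list, and Pax6 in 13. An open promoter does not show that the gene is transcribed, and the part of other cells in these values was not tested. The promoter of H3f3a, the annotation's name for H3-3a, where the oncohistone was knocked in, was called in all 13 libraries, which does not distinguish the genotypes.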

How the data were processed

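ATAC-seq was run on 13 libraries of cultured mouse OPCs (3 control brainstem, 3 K27M brainstem, 3 control telencephalon, 4 K27M telencephalon), grouped by the genotype and tissue labels. The authors trimmed reads with Trim Galore 0.6.7 and cutadapt 3.4, aligned them with BWA 0.7.17-r1188 to mm10, removed blacklisted reads in an nf-core pipeline, and ran MACS2 2.2.7.1 for broad peaks on each library separately. A broad cutoff is stated in the study's methods for its ChIP-seq and not for these lists. The lowest −log10 q in the lists was 1. The deposited lists, as the authors' peak caller wrote them, give each peak a fold enrichment (a ratio to the local background), −log10 p and −log10 q values, and a score. The deposited score was 10 times the −log10 q for all but 49 of 487975 peaks and was used for this check only. No read counts were used here, so depth and its error are unknown, and list lengths (16879 to 52466 peaks) and depth cannot be told apart.

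Promoters ran from 2.0 kb before to 1.0 kb after every start in GENCODE M21, and loci extended 50 kb beyond each gene. Peaks overlapping by at least 1 bp across lists were joined into 99746 merged peaks. Each promoter or merged peak took the highest fold of a called peak in each library. Presence was compared with two-sided Fisher's exact tests over features called in 5 to 8 libraries. The log2 fold, centred on each library's median, was compared with limma 3.58.1 (R 4.3.3) over features called in all 13 libraries, with the 4 group means in the model. Peak numbers per locus were compared with exact permutation tests over 700 arrangements, with the other factor held. The methods describe matched control and K27M cultures handled together, which shared culture numbers were taken to mark. Deviations of same-numbered libraries from their group means correlated at 0.023 to 0.288 across regions (6 pairs) and at -0.11 to 0.216 across genotypes (5 pairs). For differently numbered libraries the ranges were -0.245 to 0.329 (15 pairs) and -0.242 to 0.202 (16 pairs). The medians for same and different numbers were 0.135 and -0.075 across regions, and 0.057 and -0.015 across genotypes. The fits above had no replicate block, and a fit with it was an alternative. P-values were adjusted by Benjamini-Hochberg over all features tested, at a threshold of 0.05, and the steps were tested on simulated data. Other work used Python 3.11.15, numpy 2.4.6, pandas 2.3.3 and scipy 1.17.1. Sequences and RefSeq starts came from RefSeq on GRCm38.p6, the assembly of mm10.

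All 8 genes were named whatever their values, and single peaks were described where called in at least 10 libraries. The genes and the comparison lists were chosen with earlier results of these data known. Alternatives were a p of at most 1e-10, equal list lengths, narrower promoters, a larger overlap, other flanks, percentiles, uncentred values, permutation tests, a replicate block, leaving out each library, and, chosen after seeing the data, RefSeq starts and features called in at least 12 libraries.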

Additional observations from a re-analysis of the deposited data

Results flagged for a closer look

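The fold of the Lmx1a intronic peak 128.6 kb into the gene had 1 value apart from its group. In K27M telencephalon it was 5.23 in culture 51 and 4.02 to 4.05 in the other 3 cultures, a gap of 0.97 of the group's range. Groups of 4 were examined in 24 such tests, and chance alone marks about 1 group in 20. Culture 51 had the longest list of that group, with 52164 peaks, and the part of list length in this value was not tested.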

How the results depend on the processing

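No promoter, merged peak or locus of the 8 genes passed the adjusted threshold for region, genotype or their interaction under any alternative run. For genotype, 2 small differences turned sign. On the within-list percentile scale the K27M minus control difference was 0.89 percentile points at Egr2 and 5.89 at Atoh1, against -0.06 and -0.05 on the centred log2 scale, and neither passed. Leaving out 1 library at a time gave -0.10 to 0.0099 at Egr2, positive without control brainstem culture 59, and -0.12 to 0.00072 at Atoh1, positive without K27M brainstem culture 41. The region difference ran from 0.0048 to 0.12 at Egr2 and from -0.14 to -0.023 at Atoh1. For Lmx1b the difference in the share of libraries called ran from -0.37 to -0.17 for region and from 0.17 to 0.37 for genotype. On the percentile scale, with all libraries, the brainstem minus telencephalon difference was 15.9 ± 7.56 points (SE) at Egr2. Its unadjusted p was 0.0587 and its adjusted p 0.9997 by limma. At Atoh1 the difference was -8.67 ± 8.26 points (SE). Members at an unadjusted p under 0.05 appeared under some alternatives only, and none passed after adjustment. For strength by genotype these were the Lmx1a promoter without K27M brainstem culture 61 or with features called in at least 12 libraries (-0.21 in both), and the peak at the Ado promoter beside Egr2 without control brainstem culture 59 (0.20), without K27M brainstem culture 41 (0.17) or with the replicate block (0.20). For presence these were the peak upstream of Egr2 by region without control brainstem culture 59 (p = 0.0278, exact test) and the intronic Lmx1b peak by genotype at equal list length (p = 0.0291, exact test).

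With culture number as a replicate block, 0 member features passed, as without it, and the Lmx1b genotype difference was 0. Over all genes, the block gave 2 promoters by region in place of 4 and 3 merged peaks in place of 2, and no call for genotype or presence. With the block, the smallest p that the permutation test of presence can give is 0.0625 for genotype and 0.0312 for region. Presence by genotype therefore could not pass, and presence by region could pass only if most features shared that p. Over all genes, the 4 promoters called by region became 0 without control brainstem culture 61 or K27M brainstem culture 41, 0 with a p of at most 1e-10, uncentred values or permutation tests, 1 with the narrow promoter and 2 with equal list lengths or percentiles. The 2 merged peaks called by region became 0 to 3 with 1 library left out, 0 with a p of at most 1e-10, uncentred values or permutation tests, and 1 with equal list lengths or percentiles. The permutation test has 700 arrangements. Its smallest p is too large to pass over 11483 promoters or 13075 merged peaks unless many share it, so its 0 is not informative. The cause of the other changes was not tested. Depth is unknown, and the peaks lost at equal list length were those with the highest p of each list, not only those near the calling threshold. In control brainstem culture 61, the Atoh1 promoter peak was lost at a −log10 p of 6.86 and the 58.5th percentile of fold.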
